A study of Mus musculus with 5 samples.

Results

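The IFIT family (interferon-induced proteins with tetratricopeptide repeats) was followed through its 5 listed genes, Ifit1, Ifit2, Ifit3, Ifit3b and Ifit1bl1, which were matched by symbol among the 32285 genes of the files. All 5 were found. The data were single-nucleus RNA-seq (snRNA-seq) counts from 5 mice, labelled as hippocampus, whose nuclei had been sorted as positive for DAPI and negative for both NeuN and Olig2, to enrich microglia. There were 2 libraries from Tmem119-creERT2 mice with 1 R241E and 1 wild-type allele of Cgas (R241E), and 3 libraries from Tmem119-creERT2 mice with wild-type Cgas on both alleles (WT), so that both groups carried the Cre driver. R241E is a change in the DNA sensor cGAS that weakens its hold on nucleosomes, and the allele was switched on with tamoxifen, given to adult mice of 8 to 10 weeks. The Tmem119 promoter that drives Cre is active mainly in microglia, also in some brain macrophages. The controls are named as wild type for Cgas in the titles and methods, while the results text of the study names a heterozygous control, and the counts cannot tell these apart. A text on H151 or DMSO injections into aged mice is attached to every sample, but no sample is assigned to either.

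After filtering, 9505 of 9748 nuclei were kept, and 5378 of them fell in clusters named microglia-like from marker genes. All 10 microglia markers were detected in each of these clusters. Class names below stand for nuclei that resemble the class. Neurons and oligodendrocytes were present in every library although the gate selects against NeuN and Olig2. The libraries held 4183709 to 10130667 UMIs (unique molecular identifiers, 1 per captured RNA molecule), with medians of 2126 to 3364 UMIs per kept nucleus, and 13 barcodes occurred in more than 1 library. The R241E change is a single codon, which counts of gene tags do not show, and the Cgas transcript itself was at 83.2 and 87.9 CPM (a gene's UMIs scaled to 1000000 UMIs of the class in that library) in R241E microglia and at 66.7, 72.4 and 74.4 CPM in WT microglia.

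IFIT proteins are made on demand. Type I interferon binds its receptor and activates the transcription factor complex ISGF3, which binds interferon-stimulated response elements in promoters, and IFIT genes are among its classical targets. The proteins act on RNA: IFIT1 binds messenger RNA whose cap lacks the ribose methyl group that the host enzyme CMTR1 adds, IFIT2 and IFIT3 assemble with it, and IFIT3 stabilises IFIT1 in human cells. In mice the family has expanded by duplication. Ifit3b is a near copy of Ifit3, and Ifit1bl1 is one of several relatives of Ifit1.

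All 5 genes lie within 112.4 kb of chromosome 19 (GRCm38.p6, the assembly of the mm10 build used for the counts, RefSeq annotation). From low to high coordinates, Ifit2 (ENSMUSG00000045932) spans chr19:34550550-34576534 on the plus strand, Ifit3 (ENSMUSG00000074896) chr19:34583119-34588982 on the plus strand and Ifit3b (ENSMUSG00000062488) chr19:34607530-34613403 on the plus strand. Ifit1 (ENSMUSG00000034459) spans chr19:34640889-34650009 on the plus strand. Ifit1bl1 (ENSMUSG00000079339) is annotated on the minus strand from 34592888 to 34662981, a span that encloses Ifit3b, Ifit1bl2 and Ifit1, so its counts depend on whether read strand was used, which the sources used here do not state. The start of Ifit1 lies 61 bases from that of Ifit1bl2, which runs the other way.

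Promoter windows, 250 bases before to 50 bases after an annotated transcript start, are shown for Ifit1, Ifit3 and Ifit3b because these windows carry repeated matches to the core of the interferon-stimulated response element, GAAANNGAAA (TTTCNNTTTC on the other strand). Capitals mark the matches, and the sequences are from RefSeq's GRCm38.p6 assembly, 5′ to 3′ on the gene's strand. The windows are chr19:34640639-34640938 for Ifit1, chr19:34583279-34583578 for Ifit3 and chr19:34607707-34608006 for Ifit3b.
Ifit1: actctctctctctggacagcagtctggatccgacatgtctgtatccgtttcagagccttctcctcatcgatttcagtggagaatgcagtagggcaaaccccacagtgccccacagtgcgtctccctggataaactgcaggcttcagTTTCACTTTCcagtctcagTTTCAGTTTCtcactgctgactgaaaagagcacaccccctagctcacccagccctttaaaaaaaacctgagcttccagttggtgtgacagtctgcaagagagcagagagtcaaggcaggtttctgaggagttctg
Ifit3: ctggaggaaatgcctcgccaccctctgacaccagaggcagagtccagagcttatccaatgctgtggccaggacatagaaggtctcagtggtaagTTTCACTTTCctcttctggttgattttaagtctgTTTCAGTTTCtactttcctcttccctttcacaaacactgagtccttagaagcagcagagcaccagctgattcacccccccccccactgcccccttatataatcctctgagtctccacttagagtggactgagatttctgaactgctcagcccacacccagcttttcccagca
Ifit3b: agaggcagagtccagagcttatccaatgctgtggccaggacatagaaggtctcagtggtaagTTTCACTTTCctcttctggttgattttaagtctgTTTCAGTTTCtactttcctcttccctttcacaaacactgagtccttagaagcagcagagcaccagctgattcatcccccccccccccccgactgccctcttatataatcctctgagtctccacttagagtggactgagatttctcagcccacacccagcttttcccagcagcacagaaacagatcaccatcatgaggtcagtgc

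Each of these 3 windows held 2 matches. Those of Ifit1 begin 104 and 85 bases before the transcript start of the window, those of Ifit3 156 and 122 bases before it and those of Ifit3b 188 and 154 bases before it. For Ifit3 and Ifit3b this transcript start lies inside the gene span given above, so their matches fall within that span. The Ifit3 and Ifit3b windows were identical at 201 of 268 bases at their best ungapped offset of 32 bases. They differ in the length of a run of C, beyond which an ungapped comparison is out of register, so this number understates their likeness. Both windows of Ifit1bl1 held 1 match, and the 2 windows listed for Ifit2 held none, which says only that these letters are not in those windows. A match was present in 3.44% of all 32851 promoter windows, and 2 or more matches in 0.225%. Of the 586 genes with a window that were called higher in R241E microglia by edgeR (below), 92 had a match in a window (15.7%), beside 3.97% of the 9606 tested genes with one. Motif matches are a description of the sequence and were not tested as binding sites.

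In microglia, the members were near 0 in WT mice and present in both R241E mice. Ifit2 was at 62.5 and 56.7 CPM in R241E replicates 1 and 2, and at 2.43, 2.31 and 0.900 CPM in WT replicates 1 to 3. Ifit3 reached 84.5 and 55.4 CPM in R241E and 2.83, 4.61 and 3.30 CPM in WT. Both R241E libraries were thus far above each WT library for both genes. Ifit1, the cap-binding member, was at 32.7 and 21.4 CPM in R241E, beside 0.404, 1.84 and 1.5 CPM in WT. Ifit3b was at 25.8 and 16.6 CPM in R241E, beside 1.62, 0 and 0.6 CPM in WT. Ifit1bl1 was barely detected, with 6 and 1 UMIs in R241E, beside 0, 0 and 1 UMI in WT, a ratio of pooled rates of 15.3 with a 95% exact counting interval from 1.97 to 691. R241E replicate 1 was the higher of the R241E libraries for all 5 members.

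**Figure D1:**
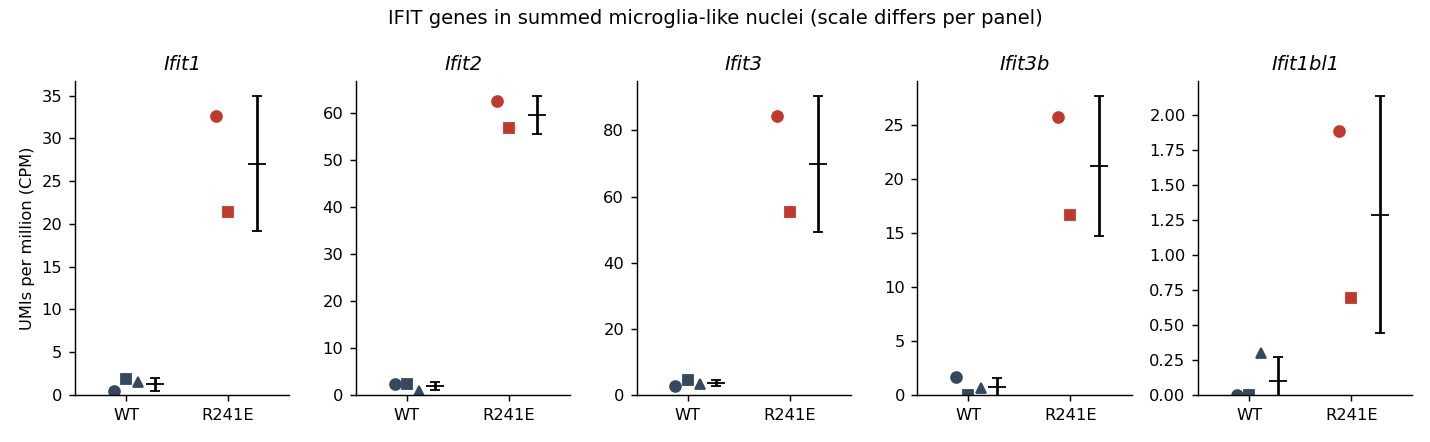
Levels of the 5 IFIT genes in summed microglia-like nuclei, in CPM (y axis, a separate linear scale from 0 in each panel), for WT and R241E mice (x axis). Circles, squares and triangles are mice 1, 2 and 3 of a group, and the dash and bars give the mean and SD, cut at 0 (n = 3 WT, n = 2 R241E). Both R241E points lie above all 3 WT points in every panel, down to the 6 and 1 UMIs of Ifit1bl1.

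Summed over the family, the microglia of R241E mice held 179 ± 39.9 CPM (SD, n = 2) and those of WT mice 7.55 ± 1.11 CPM (SD, n = 3). With edgeR's quasi-likelihood test over 12727 genes and Benjamini-Hochberg adjustment, log2 fold changes were 4.95 (SE 0.26, adjusted p = 4.04e-09) for Ifit2, 4.24 (SE 0.25, adjusted p = 1.29e-08) for Ifit3, 4.30 (SE 0.36, adjusted p = 9.21e-07) for Ifit1 and 5.09 (SE 0.52, adjusted p = 6.98e-06) for Ifit3b. By the size of the fold change they ranked 34, 52, 49 and 28 among the genes tested. Of all genes tested, 6.04% were called higher in R241E and 3.25% lower, and 20.4% had both R241E libraries above all 3 WT libraries. The 4 members called are the 4 that passed the filter on low counts, and a gene near 0 in WT passes it only through its level in R241E, so this count is a description. Ifit1bl1 did not pass it. None of the 4 lost its call under any of the 12 alternatives run, among which the log2 fold change ranged from 4.59 to 5.44 for Ifit2, 3.48 to 4.51 for Ifit3, 3.26 to 4.71 for Ifit1 and 4.35 to 6.18 for Ifit3b.

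Ifit3 and Ifit3b cannot be fully separated by sequence. Of the 90-base windows of the longest coding transcript of Ifit3 (GENCODE vM39), 21.5% were identical to a window of an Ifit3b transcript, and 30.7% of those of Ifit3b were identical to a window of Ifit3. In the last 500 bases, where 3′ tags mostly fall, the share was 4.38% for both. How reads from shared stretches were divided is not stated, so the split between Ifit3 and Ifit3b is uncertain. Ifit2 shared no window with another gene, and Ifit1 and Ifit1bl1 shared 1.42% and 0.995% with Ifit1bl2.

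The rise was also visible as a share of nuclei. To compare libraries at one depth, each nucleus was thinned at random to 1000 UMIs, which left out 9 and 26 shallower R241E microglia and 23 to 64 per WT library. At that depth, 118 of 997 nuclei (11.8%, exact binomial 95% interval 9.90 to 14.0%) and 43 of 498 nuclei (8.63%, 6.32 to 11.5%) of the R241E libraries had a UMI of any member. In the WT libraries the numbers were 7 of 903 (0.775%), 10 of 1447 (0.691%) and 7 of 1387 (0.505%). Neurons, taken as a class that should hold little of the family, gave 1 of 243 nuclei in R241E and 2 of 456 in WT, with median depths of 3058 to 5394 UMIs against 2136 to 3095 UMIs in microglia before thinning. The share in WT microglia (mean 0.657%) was close to that in WT neurons (mean 0.468%), which rests on 2 nuclei. Before thinning, WT microglia held 18, 38 and 22 IFIT UMIs in replicates 1 to 3. Of these, 11, 19 and 11 were in cluster 7 (described below), which held 4 to 5 WT nuclei per library. How much of the WT share is background was not tested. Without thinning, the share with any member was 19.0% ± 4.68 (SD, n = 2) in R241E microglia and 1.22% ± 0.403 (SD, n = 3) in WT.

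Gene by gene, the thinned share with a UMI was 6.02% ± 1.70 (SD, n = 2) in R241E and 0.382% ± 0.0823 (SD, n = 3) in WT for Ifit3, and 4.57% ± 1.06 against 0.227% ± 0.137 for Ifit2. Ifit3b was seen in 2.11% ± 0.992 of R241E and 0.0609% ± 0.0562 of WT nuclei, and Ifit1 in 1.61% ± 0.850 and 0.178% ± 0.0585. For these 4 genes both R241E libraries lay above all WT libraries, and the 2-sided exact permutation test gave p = 0.1 for each, the smallest p that 2 against 3 libraries allow. For Ifit1bl1, 1 R241E and 1 WT nucleus had a UMI (exact permutation p = 0.7), and no difference was detectable at this depth.

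**Figure D2:**
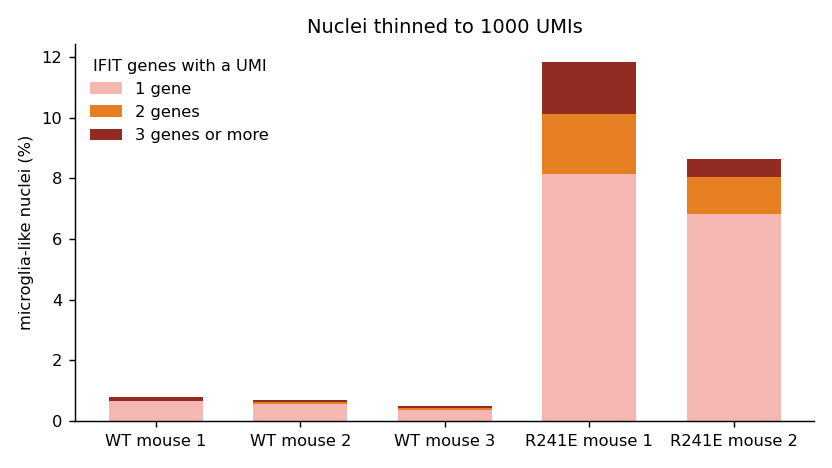
Share of microglia-like nuclei (y axis, %) in which 1, 2, or 3 or more IFIT genes had a UMI, stacked, for each mouse (x axis), after thinning every nucleus to 1000 UMIs. The bars of the R241E mice reach 11.8% and 8.63%, and those of the WT mice stay between 0.505% and 0.775%.

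Members were found together in the same nuclei. In R241E replicate 1, 81 thinned nuclei had a UMI of 1 member, 20 of 2 members, 13 of 3 members and 4 of 4 members, and in R241E replicate 2 the numbers were 34, 6, 3 and 0. For the pair Ifit2 and Ifit3, 25 nuclei of R241E replicate 1 held both, where 3.83 would if the genes fell independently among its nuclei, and 4 nuclei of replicate 2 held both, where 0.916 would. Ifit1 and Ifit2 were both present in 11 and 3 nuclei, against 1.17 and 0.191 expected. The near copies Ifit3 and Ifit3b shared 14 and 2 nuclei, against 2.02 and 0.337 expected. All 6 pairs without Ifit1bl1 exceeded independence in both R241E libraries, by 4.37-fold to 15.7-fold, and the counts in replicate 2 were 1 to 4 nuclei. In WT microglia each pair was seen in at most 3 nuclei in all. Ifit2 and Ifit3 were both present in 1 nucleus of each WT library, where 0.0133, 0.0166 and 0.00288 were expected, so the few WT nuclei with these members also exceeded independence, on 1 nucleus each. Nuclei of 1 mouse share its library, so these ratios are given with no test, and independent placement ignores any difference among nuclei other than depth.

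**Figure D3:**
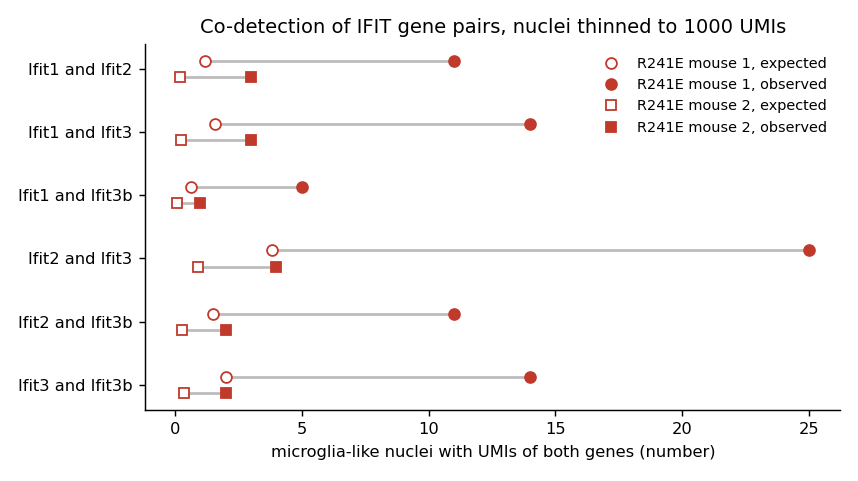
Number of R241E microglia-like nuclei with UMIs of both genes of a pair (x axis), for the 6 pairs of Ifit1, Ifit2, Ifit3 and Ifit3b (y axis), after thinning to 1000 UMIs. Filled symbols are observed, open symbols expected under independence, circles mouse 1 and squares mouse 2. Every filled symbol lies to the right of its open one, and most of the nuclei come from mouse 1.

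Most of the family's transcripts sat in few nuclei. Without thinning, 224 of 1006 nuclei of R241E replicate 1 held 660 IFIT UMIs, up to 23 in a single nucleus, and 31 nuclei held 50% of them. In R241E replicate 2, 82 of 524 nuclei held 218 UMIs and 14 nuclei held 50%. Nuclei with 2 or more members held 75.3% and 72.0% of the IFIT UMIs. Such nuclei hold several UMIs by selection and no expected share was computed, so this is a description. Of the nuclei with an IFIT UMI, 55.8% and 53.7% held a single one. Among the 5 microglial clusters, made with the members left out but with other interferon genes kept, cluster 7, led by Ifi204, Ifi207 and Ifi213, held 670 and 565 CPM of the family in the R241E libraries. The 4 to 5 WT nuclei per library that fell in cluster 7 held 904 to 1509 CPM, from 11 to 19 UMIs. In the other 4 clusters the family was at 0 to 63.0 CPM in R241E, beside 0 to 38.0 CPM in WT. Clusters 2, 5 and 7 held most R241E microglia, and clusters 0 and 1 most WT microglia. Since genes that move with the family shaped these clusters, the levels in them are a description.

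Within R241E microglia, some genes of the interferon pathway were detected more often in nuclei with an IFIT UMI than in nuclei without. At 1000 UMIs, Usp18, which limits signalling from the interferon receptor, was detected in 40.7% and 41.9% of R241E microglia with an IFIT UMI and in 9.78% and 7.69% of those without. Of 9 UMIs of Ifnb1, the gene of interferon beta, 8 were in the 161 R241E nuclei with an IFIT UMI and 1 in the 1334 without, and no thinned WT nucleus held any. For Cgas the shares were 12.7% with and 6.48% without in replicate 1, and 6.98% with and 8.79% without in replicate 2. In both R241E libraries, 22 of the 45 pathway genes found in the files, out of 47 listed, were detected in a larger share of nuclei with an IFIT UMI. Among the genes tested by edgeR in microglia, this held for 21 of 40 pathway genes (52.5%) and for 18.8% of 12712 genes other than members. The 22 included 4 of 4 genes of restraint, 3 of 7 from DNA sensing to interferon and none of 5 cap enzymes. Markers of monocytes or neutrophils were at 0.763 and 0.930 UMIs per 10000 with an IFIT UMI and at 0.262 and 0.352 without, and endothelial markers at 0.508 and 0.465 with and 0.307 and 0.286 without. These 2 marker lists were the only ones higher with an IFIT UMI in both R241E libraries. Those of border-associated macrophages, lymphocytes, neurons and ependymal cells or tanycytes were lower in both. The rates with an IFIT UMI come from 118 and 43 nuclei of 1000 UMIs each, so they rest on few UMIs. The part of monocyte, neutrophil or endothelial RNA in the result was not tested. Microglia markers were not higher in nuclei with an IFIT UMI, at 68.8 and 84.0 UMIs per 10000 with and 80.1 and 92.7 without.

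Over summed microglia, edgeR called 18 of the 40 pathway genes tested higher in R241E and 1 lower. The median log2 fold change of the 40 was 0.53, beside a median of -0.005 over all genes. In the route from DNA to interferon, 2 of 7 rose. Irf7, the factor that amplifies interferon production, was at 46.2 and 52.6 CPM in R241E, beside 3.64 to 4.38 CPM in WT (log2 fold change 3.53, SE 0.22, edgeR adjusted p = 2.06e-08). Ifnb1 had 15 and 7 UMIs in R241E and none in the 3 WT libraries, at least 16.1-fold higher against a floor of 3 counts over the group (edgeR adjusted p = 7.94e-04). Cgas itself did not pass, at 0.24 on the log2 scale (SE 0.12, edgeR adjusted p = 0.279). The call of Ifnb1 was lost without R241E replicate 1, in thinned sums and when nuclei with markers of another class were left out. Of the receptor and ISGF3 genes, 4 of 10 rose. The log2 fold changes were 2.35 for Stat2 (SE 0.13) and 1.10 for Irf9 (SE 0.12), both parts of ISGF3, with edgeR adjusted p = 5.03e-09 and 1.37e-05. Irf8, a lineage factor of microglia, was at 340 and 365 CPM in R241E, beside 277 to 309 CPM in WT and did not pass (edgeR adjusted p = 0.182).

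Of the genes that restrain the response, 3 of 4 rose. Usp18 had a log2 fold change of 3.96 (SE 0.15) and Isg15, the ubiquitin-like modifier, of 4.12 (SE 0.26), with edgeR adjusted p = 7.49e-11 and 2.98e-08. Socs1, an inhibitor of JAK kinases, changed by 1.93 on the log2 scale (SE 0.39, edgeR adjusted p = 0.00389), a call lost in thinned sums and when nuclei with markers of another class were left out. Socs3 was at 9.42 and 11.8 CPM in R241E and 3.92 to 9.0 CPM in WT without passing (edgeR adjusted p = 0.219). Among RNA sensors and effectors, 8 of 10 tested rose and 1 was called lower. The smallest adjusted p were those of Oasl2 (log2 fold change 5.28, SE 0.20), the RNA-activated kinase Eif2ak2 (1.97, SE 0.11) and the nucleic acid sensor Zbp1 (5.64, SE 0.35). Mavs, the adaptor of the RNA helicases, was at 32.7 and 31.1 CPM in R241E, beside 27.9 to 33.9 CPM in WT (edgeR adjusted p = 0.898).

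The cap methyltransferase Cmtr1, whose product marks host RNA as self for IFIT1, was the 1 of 5 cap enzymes that rose. It was at 71.9 and 88.6 CPM in R241E, beside 51.8, 47.0 and 45.3 CPM in WT (log2 fold change 0.70, SE 0.14, edgeR adjusted p = 0.00353). Its call was lost without R241E replicate 2, in thinned sums and when nuclei with markers of another class were left out. The capping enzyme Rngtt did not pass (log2 fold change -0.18, SE 0.13, edgeR adjusted p = 0.517). Of 9 neighbours of the family on chromosome 19, 4 were tested and none passed, the closest being Pank1, an enzyme of coenzyme A synthesis (log2 fold change -0.47, SE 0.26, edgeR adjusted p = 0.332). Ifit1bl2, between Ifit3b and Ifit1, had too few counts for the test, with 6 and 4 UMIs in R241E, beside 1, 3 and 1 UMIs in WT.

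Outside microglia, the family was compared in 6 classes that had at least 20 nuclei in every library. In WT mice the order of mean family levels was fibroblasts (118 CPM), border-associated macrophages (72.9 CPM), astrocytes (19.3 CPM), mural cells (12.2 CPM), neurons (10.8 CPM), oligodendrocytes (9.69 CPM) and microglia (7.55 CPM). Of these neighbours in the order, only oligodendrocytes and microglia had ranges that did not overlap. In R241E mice microglia came first at 179 CPM, followed by border-associated macrophages (147 CPM), astrocytes (136 CPM), oligodendrocytes (108 CPM), fibroblasts (92.4 and 108 CPM), mural cells (93.0 CPM) and neurons (6.80 CPM), and only mural cells and neurons had ranges apart. Microglia thus stood last of 7 classes by mean in WT and first of 7 by mean in R241E. Of the classes left out for few nuclei, lymphocytes (453 CPM) and endothelial nuclei (411 CPM, from 5 and 22 UMIs) had higher R241E means. Ependymal cells or tanycytes (165 CPM) and MHC class II-high myeloid nuclei (99.2 CPM) had lower ones. In WT, lymphocytes stood below microglia at 6.03 CPM, from 1 UMI. The low end of the WT order rests on few UMIs. WT replicates 1 to 3 held 3, 3 and 4 in oligodendrocytes, 0, 3 and 3 in mural cells and 10, 6 and 4 in neurons. The lowest WT oligodendrocyte library was at 8.86 CPM, beside 8.76 CPM in the highest WT microglia library. At the top, fibroblasts of WT replicate 1 were at 235 CPM from 22 UMIs, beside 56.9 and 61.8 CPM in replicates 2 and 3.

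**Figure D4:**
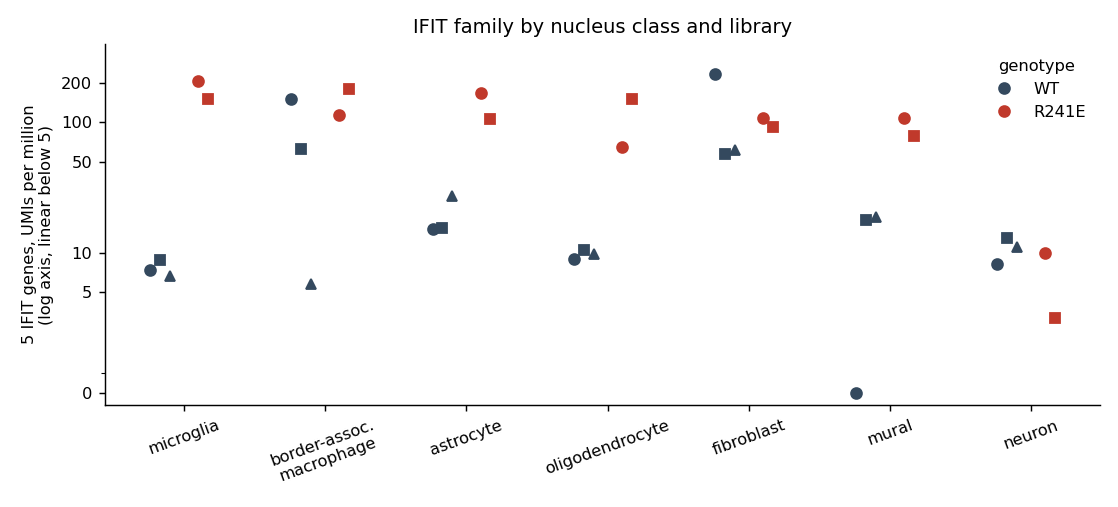
Summed level of the 5 IFIT genes in CPM (y axis, logarithmic above 5 and linear below) in the 7 classes tested (x axis), 1 point per mouse with WT in dark blue and R241E in red. Circles, squares and triangles are mice 1, 2 and 3. The groups are apart in microglia, astrocytes, oligodendrocytes and mural cells and overlap in border-associated macrophages, fibroblasts and neurons. In microglia 20.4% of all genes tested had both R241E libraries above all WT libraries. This share was not computed for the other classes, so the separation there is a description.

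Astrocytes were the only other class in which edgeR called members. The class joins 2 clusters: cluster 8 held most astrocytes of both R241E libraries and of WT replicate 1, and cluster 12 most of those of WT replicates 2 and 3. Ifit1 was at 44.4 and 35.4 CPM in R241E astrocytes and at 3.05, 0 and 7.81 CPM in WT (log2 fold change 3.16, SE 0.59, edgeR adjusted p = 0.0354). Ifit3b was at 38.9 and 25.0 CPM against 0, 0 and 1.95 CPM (log2 fold change 4.89, SE 0.85, edgeR adjusted p = 0.0312). Ifit3 was at 74.6 and 31.2 CPM against 12.2, 11.5 and 15.6 CPM and did not pass (edgeR adjusted p = 0.0749). Ifit2 was low in both groups, at 8.65 and 8.32 CPM in R241E, beside 0, 3.85 and 1.95 CPM in WT, and did not pass the filter. Among all genes tested in astrocytes, 0.292% were called higher. Both calls were lost when R241E replicate 1, R241E replicate 2, WT replicate 2 or WT replicate 3 was left out (edgeR adjusted p of Ifit1 0.968, 0.0576, 0.197 and 0.112; Ifit3b did not pass the filter without R241E replicate 1), and DESeq2 gave neither gene an adjusted p. The 10 microglia markers together were at 3.20% to 4.99% of their level in microglia of the same library. The family was at 80.4% and 70.3% of its microglial level in the R241E libraries. In astrocyte nuclei with no microglia marker UMI, a choice made after seeing the data, the family was at 200 and 170 CPM in R241E, beside 8.43, 28.8 and 62.1 CPM in WT. A contribution of RNA from microglia to these levels was not tested.

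Oligodendrocytes of WT mice held no UMI of Ifit1, Ifit3 or Ifit3b, and those of R241E mice held 16 and 9, 36 and 28, and 13 and 4 UMIs. Relative to a floor of 3 counts over the WT group, these were at least 5.34-fold, 13.7-fold and 3.63-fold higher. None of the 5 members passed the low-count filter in this class, where 0.267% of genes were called higher, and with no filter edgeR called Ifit1 and Ifit3. Stat2 and Irf9, named after their values were seen, were called higher in oligodendrocytes (edgeR adjusted p = 0.00197 and 0.0142). Microglia markers were at 3.04% and 2.52% of their microglial level in these R241E nuclei, and the family at 31.3% and 100% of its own. In mural cells, where the test called 0 of 3862 genes (174 at an unadjusted p under 0.05, and 44 by DESeq2, which also called 0), the family was at 108 and 78.1 CPM in R241E, beside 0, 17.9 and 18.7 CPM in WT, with microglia markers at 8.63% and 6.06% of their microglial level in R241E.

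In border-associated macrophages, which the driver also reaches, and in fibroblasts the summed family levels of the genotypes overlapped. No member passed the filter in the macrophages, where 0.862% of genes were called higher. The family was at 113 and 181 CPM in R241E macrophages and at 150, 62.7 and 5.75 CPM in WT. Ifit3 did not overlap, at 61.2 and 78.6 CPM in R241E macrophages, beside 39.2, 37.6 and 5.75 CPM in WT, from 20 and 10 UMIs and 6, 6 and 1 UMIs. After thinning, 12.5% and 18.2% of R241E macrophages had a UMI of any member, beside 5.56%, 10.2% and 1.28% in WT, again without overlap. The summed levels of the other members overlapped in macrophages, and the mean of Ifit3b was lower in R241E (4.59 against 13.1 CPM). The share of all genes without overlap was not computed for this class. Oasl2, named after its values were seen, was called higher in the same macrophages (log2 fold change 2.01, edgeR adjusted p = 8.01e-04). In fibroblasts Ifit2 was lower in R241E, at 6.90 and 14.4 CPM against 95.9, 32.5 and 19.3 CPM in WT, with no overlap. These levels rest on 5 and 7 UMIs in R241E, beside 9, 8 and 5 UMIs in WT, and Ifit2 did not pass the filter there. The other members overlapped in fibroblasts, and the share of all genes without overlap was not computed for them either. Fibroblast Ifit1 was the 1 member tested there and did not pass, in a class where 0.0172% of genes were called (log2 fold change 1.03, SE 0.59, edgeR adjusted p = 0.827). Neurons held 2 to 10 family UMIs per library over both groups, and 0.0112% of genes were called higher in them.

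To compare the genotype effect between classes, the interaction of class and genotype was tested by edgeR, with microglia as the reference. The fold was smaller than in microglia for 9 of 24 combinations of gene and class: Ifit2, Ifit3 and Ifit1 in fibroblasts, Ifit2, Ifit3 and Ifit3b in border-associated macrophages, Ifit3 in astrocytes and Ifit2 in neurons and oligodendrocytes. Over all genes, 0.656% of tests were called lower for fibroblasts, 0.504% for border-associated macrophages, 0.664% for astrocytes, 0.0939% for neurons, 0.488% for oligodendrocytes and 0.234% for mural cells. The difference was -6.84 on the log2 scale for Ifit2 in fibroblasts (SE 0.71), where Ifit2 did not pass the filter on its own. Its p is not given, since Ifit2 entered this fit mainly through R241E microglia, a side of the contrast itself. For Ifit3 in astrocytes the difference was -2.22 (SE 0.58, edgeR adjusted p = 0.0257). No combination was called larger than in microglia. Of the 9, 7 concern genes that did not pass the low-count filter within that class and entered this fit through their level in other sums, above all R241E microglia. The exceptions are Ifit3 in astrocytes and Ifit1 in fibroblasts. With 1 library left out, the difference for Ifit2 in fibroblasts, 1 of the 7, ran from -7.37 to -6.21, which is a description. The direction turned for Ifit3b in border-associated macrophages without WT replicate 1 (0.56) and for Ifit2 in oligodendrocytes when nuclei with markers of another class were left out (1.36). Where a class held few UMIs, the size of the difference depends on the counts the fit adds. Without R241E replicate 1, 2 combinations were called, without R241E replicate 2 there were 5, without WT replicate 1 there were 3, and 1 was called when nuclei with markers of another class were left out.

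The share of a member among the family's UMIs varied between classes. Ifit2 made up 30.2% and 37.6% of the family's UMIs in microglia of the R241E libraries (exact binomial 95% intervals 26.7 to 33.8% and 31.2 to 44.4%). In astrocytes of the same libraries it made up 5.19% (2.27 to 9.98%) and 7.84% (2.18 to 18.9%), below both microglial intervals. Pooled over the R241E libraries, its share was 6.43% in lymphocytes, 7.41% in ependymal cells or tanycytes and 9.76% in fibroblasts, and 31.3% in mural cells and 25.0% in border-associated macrophages. Of the 135 family UMIs in R241E ependymal cells or tanycytes, 129 came from replicate 1. In oligodendrocytes the libraries differed, with 24.4% and 6.82%. Ifit1 made up 15.8% and 14.2% in R241E microglia, 26.6% and 33.3% in astrocytes, and 45.5% in fibroblasts pooled over both R241E libraries. In WT fibroblasts Ifit2 made up 42.3% of 52 UMIs (28.7 to 56.8%). These are shares of 1 gene compared between classes, differences between members were not tested, and the intervals cover counting error only.

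**Figure D5:**
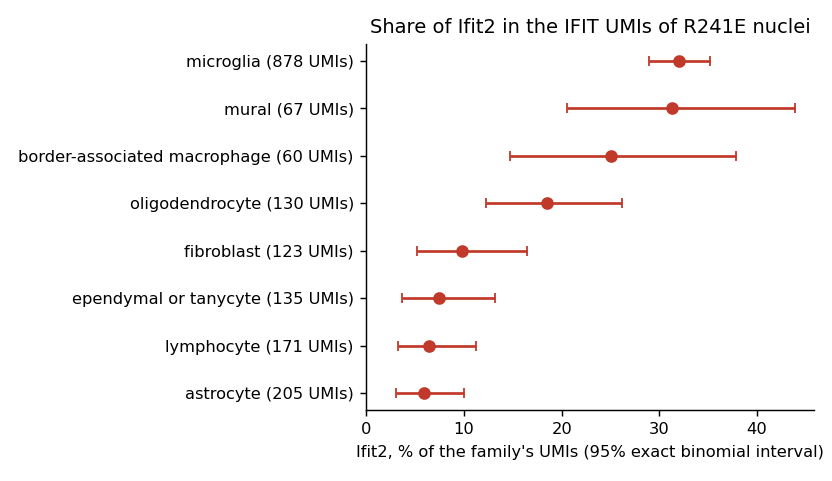
Share of Ifit2 among the UMIs of the 5 IFIT genes (x axis, %) in R241E nuclei pooled over both mice, for classes with at least 50 such UMIs (y axis, number in brackets). Bars are 95% exact binomial intervals, which cover counting error and not the spread between mice. Microglia stand at 32.0% and astrocytes at 5.85%. Of the 135 UMIs of ependymal cells or tanycytes, 129 came from mouse 1.

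Ifit1bl1 was found mainly in lymphocytes. Of its 78 UMIs in all nuclei, 52 were in lymphocytes and 8 in microglia, although microglia were the more numerous by far. It was seen in 36 of 155 lymphocyte nuclei of R241E mice, with 41 and 10 UMIs in the libraries, and in 1 of 38 of WT mice, with 0, 0 and 1 UMI. Lymphocytes numbered 3 to 28 per WT library, under the minimum for a test, so that the genotypes were not compared there. The family as a whole was at 444 and 462 CPM in R241E lymphocytes, with 130 and 41 UMIs. Microglia markers in these nuclei were at 11.5% and 9.99% of their microglial level. In MHC class II-high myeloid nuclei, whose leading genes also include markers of monocytes or neutrophils, the family had 28 and 1 UMIs in R241E, beside 3, 22 and 1 UMIs in WT.

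Over 35 library sums (7 classes in 5 libraries, which share mice and depth), the pattern of Ifit1 in log2(CPM + 1) was most like that of Gbp6 (Pearson r = 0.886), Isg15 (0.759), Rsad2 (0.735), Lgals3bp (0.729) and Igtp (0.717). Ifit3 was most like Gbp6 (0.790), Herc6 (0.787), Irgm1 (0.768), Oasl2 (0.768) and A930037H05Rik (0.766). For Ifit2 the closest were Zbp1 (0.711), Tpst1 (0.703), Isg15 (0.672), Oasl2 (0.614) and F830016B08Rik (0.612). Between members, r was 0.801 for Ifit1 and Ifit3 and 0.603 for Ifit2 and Ifit3. All of these named genes had higher levels in R241E microglia (edgeR log2 fold changes 1.48 to 5.86). These correlations are descriptions over sums that are not independent.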

How the data were processed

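Libraries were made from sorted brain nuclei with the 10x 3′ chemistry. The deposited matrices hold raw UMI counts for each gene in each nucleus, made by the authors with Cell Ranger 7.0.0 against mm10. Whether intronic reads and read strand entered the counts is not given in the sources used here. The members and gene lists were chosen with earlier results of these data known.

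Nuclei with at least 200 and below 4500 genes, below 10000 UMIs and below 5% mitochondrial counts were kept. These upper limits were the only treatment of doublets. Nuclei were clustered with scanpy 1.11.5 (3000 variable genes without the members, 30 principal components, 20 neighbours, Leiden resolution 1), and clusters were named from marker lists. Counts were summed per library and class, in classes of at least 20 nuclei per library, filtered with filterByExpr and tested with edgeR 4.0.16 (quasi-likelihood, TMM, Benjamini-Hochberg, threshold 0.05) in R 4.3.3. Differences between classes were tested as the interaction of class and genotype. Scripts were tested on simulated data. Library totals were 4183709 to 10130667 UMIs, and intervals are 95% exact and cover counting error only. A fold against a group at 0 used a floor of 3 counts over the group.

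Titles name separate mice as replicates. Alternatives were DESeq2 1.42.0, its size factors, no filter, thinned sums, lifted upper limits, mixed nuclei (2 or more UMIs of markers of another class) left out, a replicate block and each library left out. Nuclei with a microglia marker UMI were left out as an alternative chosen after seeing the data. Pathway genes named were, by role, the 3 called genes of smallest p and the uncalled gene nearest the threshold. Some genes of this list are not reported here. The closest patterns named were the 5 genes, of those tested in microglia, with the highest Pearson r to each of Ifit1, Ifit2 and Ifit3.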

Additional observations from a re-analysis of the deposited data

Results flagged for a closer look

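Combinations of gene and class whose R241E-to-WT fold differed from that in microglia, by edgeR's test of the interaction, are given here as differences of log2 folds (class minus microglia). In fibroblasts the difference was -6.84 for Ifit2, -3.76 for Ifit3 and -3.09 for Ifit1. In border-associated macrophages it was -5.58 for Ifit3b, -3.80 for Ifit2 and -2.91 for Ifit3. For Ifit2 it was also -6.52 in neurons and -4.25 in oligodendrocytes, and for Ifit3 in astrocytes it was -2.22. Only Ifit3 in astrocytes and Ifit1 in fibroblasts passed the low-count filter within the class itself. Neurons held 1 and 1 UMIs of Ifit2 in R241E, beside 9, 3 and 0 in WT. Border-associated macrophages held 3 and 0 UMIs of Ifit3b in R241E, beside 6, 0 and 0 in WT. Differences resting on so few UMIs are descriptions. The direction turned to 0.56 for Ifit3b in macrophages without WT replicate 1, and to 1.36 for Ifit2 in oligodendrocytes without nuclei that held markers of another class. The neuron call was lost without either R241E library, without WT replicate 1 or 2, and without such mixed nuclei, and the astrocyte call was lost without any 1 library or such nuclei. The classes differ in number of nuclei and in UMIs. The part of this in the differences was not tested.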

How the results depend on the processing

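In microglia 4 members were called under all 12 alternatives, and the replicate block also gave 4. The replicate number is only a shared number (correlation of deviations 0.0994 for number 1 and -0.0178 for number 2). In other classes 2 calls became 0 with DESeq2, which gave both genes no adjusted p, 5 with no filter, 3 with the replicate block and 0 to 2 with 1 library left out. No member passed the filter there in thinned sums, or without mixed nuclei or nuclei with a microglia marker UMI, so these gave no value. The 9 interaction calls became 1 without mixed nuclei (fibroblasts could not be fitted) and 2 to 7 with 1 library left out. Without mixed nuclei the difference for Ifit2 in oligodendrocytes reversed to 1.36, and with 1 library left out that for Ifit3b in macrophages ran from -11.33 to 0.56. The difference in share of microglia with an Ifit1bl1 UMI was 0 percentage points without mixed nuclei and -0.024 to 0.0763 with 1 library left out. The 19 pathway calls, in either direction, stayed between 16 and 22. Of 6 pairs, 6 exceeded independence without thinning, 5 at 500 UMIs and 4 without mixed nuclei. The cause of these changes was not tested. With 1 R241E library left, it is assumed to vary like the WT group. With 8 UMIs, Ifit1bl1 could not be tested in microglia.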
